A study of Drosophila melanogaster with 40 samples.

Results

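Binding of the repressor Capicua (Cic) to chromatin was compared between Drosophila embryos with a constitutively active Torso receptor and wild type embryos. Chromatin immunoprecipitation and sequencing (ChIP-seq) were done with an antibody against GFP that pulled down Cic carrying super-folder GFP at its own locus. Every peak of the authors' final list was used, 90 on autosomes and 13 on the X chromosome, out of 468 calls made in the wild type libraries. The comparison rests on 6 of the 40 libraries of the series, 3 ChIP libraries of each group, which the authors had combined into 1 matrix of signal per group.

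The wild type embryos had the genotype (+/+); (CicsfGFP/+), and the embryos with active Torso had (TorD4021/+);(cicsfGFP/+). In both genotypes 1 of the 2 copies of cic is tagged, and Cic made from an untagged copy was not seen by the antibody. The labels do not say whether a genotype is that of the mother or of the embryo. If it is that of the mother, the number of tagged copies in each embryo is not known. Embryos were collected in the dark, fixed for 15 min and picked at early nuclear cycle 14. They were whole embryos, so fewer nuclei with bound Cic and less Cic per nucleus cannot be told apart. OptoSOS embryos of the same series, in which blue light switches on Ras and ERK, are used below only to set values side by side.

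Torso is a receptor tyrosine kinase that is spread over the whole surface of the early embryo but is normally activated at the poles. It signals through Ras, Raf and MEK to the kinase ERK. Cic is an HMG-box protein that holds genes such as tll and hkb silent in the trunk. Phosphorylation by ERK takes Cic off its targets and leads to its export from the nucleus and its degradation, and those genes are then transcribed. The TorD4021 allele signals without ligand and so spreads ERK activity beyond the poles. The comparison asks what lasting activity of the receptor leaves of Cic at its sites.

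Signal was read from the deposited z-scores, in which 0 is the mean and 1 the SD of noise peaks of the same condition. The value of a peak is the mean within 250 bp of the window centre. Folds were taken from coverage over noise, that is the recovered read coverage divided by the mean coverage of the noise peaks, which has a true zero. Each fold has a 95% exact conditional interval that covers counting error only. With 1 combined matrix per group the spread between libraries is unknown, no test across embryos was possible and no p-value is given. Peaks had been called in the same wild type libraries, which favours a lower value in any other group, and sites bound in TorD embryos alone cannot appear.

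Cic signal was lower in TorD embryos at most peaks, and some of it was left at most of them. TorD had the lower z-score at 99 peaks and the higher one at 4. Wild type had a median of 7.29, with a 95% interval over peaks of 6.52 to 8.91, and TorD one of 2.83, with 2.14 to 3.40. The median difference was -4.56 (95% interval over peaks -5.16 to -4.13). In wild type the peaks ran from 2.11 to 35.3, and in TorD from -0.114 to 23.8, so the 2 ranges overlapped widely.

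On the scale of coverage over noise the median peak was 2.20-fold lower in TorD (95% interval over peaks 2.06 to 2.38), and the middle 50% of peaks lay between 1.63-fold and 2.72-fold. At least 2-fold lower were 62 peaks, which is 60.2% of all, 20 were at least 3-fold lower and 9 at least 4-fold. One peak, 0.971% of all, was at least 2-fold higher. The counting interval lay wholly on the lower side at 90 peaks, or 87.4%, wholly on the higher side at 3, or 2.91%, and included no difference at 10. The median peak rested on 168 read equivalents in wild type and 92.6 in TorD, a read equivalent being 74 sequenced bases.

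**Figure D1:**
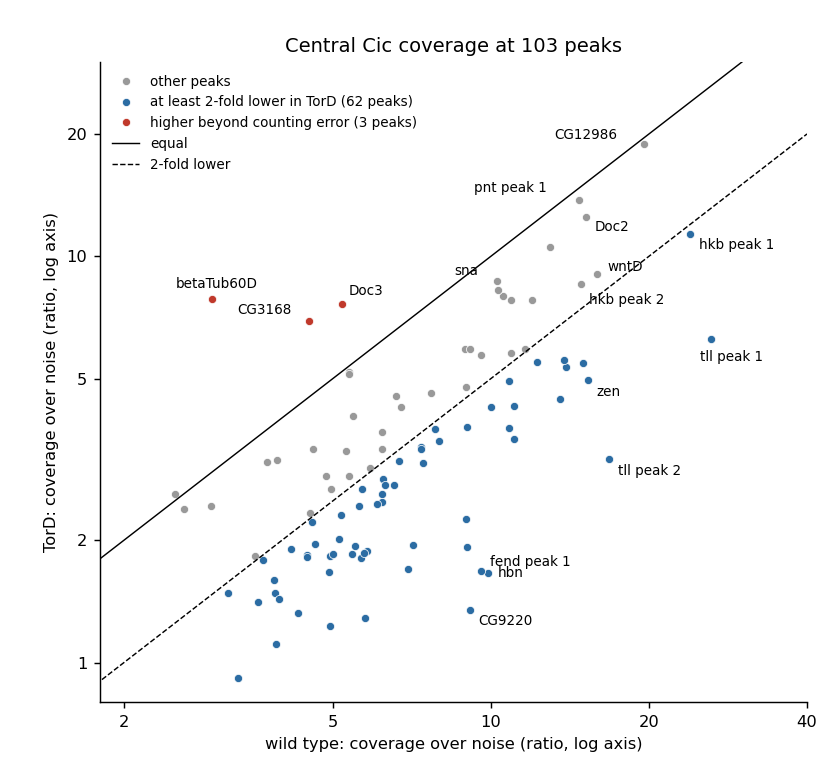
Each point is 1 peak, placed by its central coverage over noise (a ratio, log axes) in wild type and in TorD embryos. Most points lie below the line of equal values, 62 of them at or below the dashed line of a 2-fold lower value, and 3 lie above equality beyond counting error.

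As a gauge of how far unstimulated groups differ, OptoSOS embryos kept without light were set against the same wild type matrix. There 0 peaks (0%) were at least 2-fold lower, 3 (2.91%) were lower beyond counting error and 48 (46.6%) were higher beyond it, so counting error alone understates the difference between groups. The largest fold lower was 1.90 and the largest fold higher 1.74. Of the TorD folds, 66 lay above that largest fold lower, and 1 peak was higher in TorD by more than that largest fold higher. Both comparisons use the same wild type samples.

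**Figure D2:**
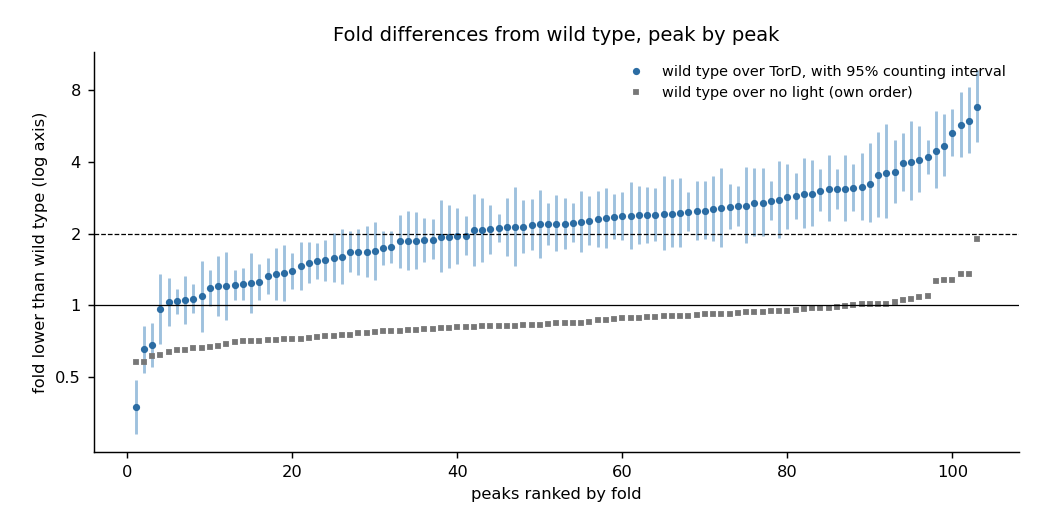
Folds of coverage over noise per peak (log axis), wild type over TorD in blue with 95% counting intervals and wild type over OptoSOS embryos without light in grey, each set in its own order. The TorD folds run from 0.374 to 6.78 with a median of 2.20, and no grey value is above 1.90.

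Signal above noise was reduced further than the folds of total coverage show. The median peak kept 35.1% of its wild type coverage above the noise mean, and the middle 50% of peaks kept between 21.9% and 54.8%. At 40 peaks the TorD z-score was below 2, and at 15 of these it was below 1, against 0 peaks below 2 in wild type. Above a z-score of 10 there were 37 peaks in wild type and 8 in TorD. The mean profile over all peaks had 15.5 times the noise level at its centre in wild type and 7.35 times in TorD. Its width at the half-maximum was 210 bp and 220 bp, so the mean profile was lower and about as wide. Windows were centred anew in each condition, which may raise the centre of a TorD profile where little signal is left. With TorD windows moved to fit the wild type shape the median fold was 2.15, and the effect of the centring on the width was not tested. Median coverage at the flanks, 750 to 1000 bp from the centre, was 1.37 and 1.34 times noise.

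The order of the peaks was kept in part. Spearman's rho of the z-scores of wild type and TorD was 0.660 over all peaks, which share their calls and an antibody. Of the 10 highest wild type peaks, 6 were among the 10 highest in TorD, namely CG12986, hkb peak 1, wntD, Doc2, hkb peak 2 and pnt peak 1. The other 4 were tll peak 1, which went from rank 1 to rank 16, tll peak 2, from 4 to 49, zen, from 6 to 28, and dpp peak 1, from 8 to 24. The lower folds were not those of the weakest or strongest peaks alone: with the peaks split into 4 bins of 25 or 26 by wild type z-score, the median folds from the low to the high bin were 2.097, 2.35, 2.27 and 2.04.

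Terminal genes are the classical targets of Torso, and their peaks differed from each other. The list of terminal and gut genes had 9 genes, of which 5 had 9 peaks. Each of the 9 had a lower TorD value beyond counting error, and 5 were at least 2-fold lower, beside 87.4% and 60.2% of all peaks. The median was 2.11 beside 2.20 over all peaks.

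The gene tll encodes an orphan nuclear receptor that patterns both ends of the embryo. Its peak 1 lies at the promoter (dm6, 3R, 30851662 to 30852585) and was the highest peak of wild type. It had a z-score of 35.3 in wild type and 6.98 in TorD, and its coverage went from 26.2 to 6.24 times noise, 4.20-fold lower (95% counting interval 3.57 to 4.97). With the TorD window moved by 320 bp to fit the shape of the wild type profile, the fold was 3.46. Peak 2, upstream of the gene (3R, 30849340 to 30850503), went from 22.1 to 2.90 in z-score and was 5.29-fold lower (4.23 to 6.68). The weaker peak 3, downstream of the start site (3R, 30856142 to 30856626), went from 5.84 to 1.75 and was 2.24-fold lower (1.66 to 3.03). All 3 tll peaks were thus at least 2-fold lower, and the 2 strongest were lower by more than 4-fold.

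The gene hkb encodes a zinc-finger factor of the same system, which sets the borders of the gut primordia. Its distal peak 1 (3R, 4348112 to 4348940) was the second highest in wild type, with a z-score of 32.1, and stayed at 13.8 in TorD, the fourth highest there. The fold was 2.11 (1.85 to 2.42). Its promoter peak 2 (3R, 4346449 to 4347038) had 19.4 and 10.1, a fold of 1.74 (1.48 to 2.04). The centres of these 2 windows lay 1510 bp apart in wild type and 1820 bp apart in TorD, so at least 1 of them was read at another place in TorD. The intervals of both hkb peaks lay below those of tll peaks 1 and 2, while that of the weak tll peak 3 overlapped with both. By share of coverage above noise, hkb kept 45.03% and 54.5%, and tll peaks 1, 2 and 3 kept 20.8%, 13.8% and 31.5%.

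Among the genes of the gut, fkh, a forkhead factor of fore- and hindgut, was 3.03-fold lower (2.48 to 3.73), from a z-score of 17.5 to 4.61. The GATA factor gene srp, needed for endoderm, kept more. Its peak 1 had z-scores of 16.7 and 12.7 and was 1.23-fold lower (1.05 to 1.44), and its peak 2 was 1.58-fold lower (1.25 to 2.00). The Wnt family gene wntD, whose product restrains Dorsal signalling, had 20.8 and 10.7 at its promoter (3R, 13293257 to 13293787), a fold of 1.76 (1.51 to 2.06). The interval of srp peak 1 lay below those of wntD and fkh, that of srp peak 2 overlapped with wntD, and srp peak 1 was the fifth highest of TorD.

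Of 15 gap and head genes 3 had a peak, and all 3 peaks were at least 2-fold lower, beside 60.2% of all peaks, with a median of 2.44. The peak of hbn, a homeobox gene of the head (2R, 20961439 to 20961819), had a z-score of 12.4 in wild type and 0.879 in TorD. Its coverage was 5.95-fold lower (4.38 to 8.24) and rested on 267 and 49.2 read equivalents. The POU gene pdm2 was 2.44-fold lower (1.76 to 3.43) and the zinc-finger gene salm 2.29-fold (1.75 to 3.02). In TorD the hbn peak was therefore within 1 SD of noise. Its central coverage there was 1.66 times noise, below its flanks at 2.65, so no fold could be given with the flank taken off.

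The receptor tyrosine kinase and ERK pathway is itself a target of Cic, and its own list shows how far the signal is lower at feedback genes. Of its 34 genes 8 had a peak, 12 peaks in all. Of these, 11 were lower beyond counting error, where 87.4% of all peaks were, and 8 at least 2-fold lower, where 60.2% were, with a median of 2.25. Both shares are near those of all peaks. The receptor gene Egfr went from 14.1 to 4.36 in z-score, 2.59-fold lower (2.099 to 3.22). Star (S), which helps to export the ligand Spitz, was 2.37-fold lower (1.72 to 3.30). Among the inhibitors, the gene aos, for a secreted antagonist of Egfr, was 2.13-fold and 2.48-fold lower at its 2 peaks. Mkp3, a phosphatase of ERK, was 2.36-fold lower (1.88 to 2.98), and sty, an intracellular inhibitor of the pathway, 2.13-fold (1.46 to 3.14). The inhibitor genes of the list, aos, Mkp3 and sty, were thus close to the median of all peaks. Outside the list, the negative regulators of Ras RasGAP1 and Nf1 were 1.03-fold (0.816 to 1.30) and 2.32-fold (1.74 to 3.11) lower. The untagged level at Mkp3, that is the peak caller's local control level from untagged embryos, was 2.17 times the lowest among the peaks. Its part in the value was not tested.

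Both intronic peaks of cic itself were lower, peak 1 by 3.14-fold (2.28 to 4.37) and peak 2 by 2.54-fold (1.86 to 3.50). Their wild type z-scores were 6.52 and 5.77, and in TorD they had 1.07 and 1.36. The locus also carries the tag.

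The smallest folds of the list were at pnt, which encodes ETS activators downstream of ERK. Its promoter peak 1 (3R, 23314231 to 23314688) had a z-score of 19.1 in wild type and 17.04 in TorD, with 398 and 409 read equivalents. The fold of 1.07 (0.926 to 1.23) does not exclude equal coverage, and its upper bound lies below the median of all peaks; without division by the noise mean it was 0.973, on the other side of equality. It went from rank 10 to rank 2. Peak 2 (3R, 23315058 to 23315760) had 13.04 and 9.66, a fold of 1.25 (1.05 to 1.49), or 1.53 after its TorD window was moved by 280 bp to fit the wild type shape. The weak peak 3 in an intron was 1.94-fold lower (1.43 to 2.64). Each of the 3 pnt peaks was under 2-fold lower. Another strong intronic peak of the list, at the FGF gene ths, was 1.53-fold lower (1.29 to 1.82), with an untagged level 2.17 times the lowest.

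**Figure D3:**
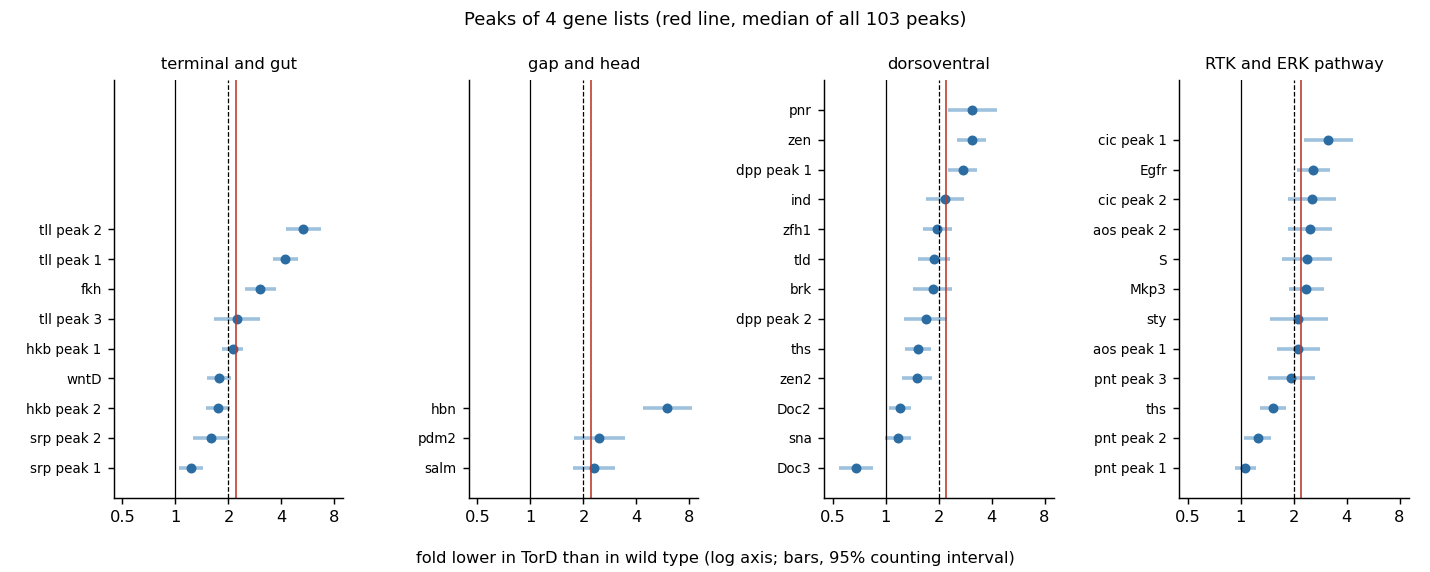
Fold lower in TorD than in wild type (log axis) for each peak of 4 gene lists, with 95% counting intervals; the solid black line marks equal values, the dashed line 2-fold and the red line the median of all peaks, 2.20. In the terminal list the tll peaks 1 and 2 lie at 4.20 and 5.29 and srp peak 1 at 1.23, and in the pathway list pnt peak 1 lies at 1.07.

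The dorsoventral list had the lowest median fold of the lists with 9 or more peaks. Of its 30 genes 12 had 13 peaks. Of these peaks 11 were lower beyond counting error, 4 at least 2-fold lower and 1 higher beyond counting error, with a median of 1.85. Over all peaks the shares were 87.4%, 60.2% and 2.91%. The counts describe this list and no test of its difference from other peaks was made.

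Genes of the dorsal side and the BMP pathway gave both large and small folds. The homeobox gene zen, which specifies the amnioserosa, went from 20.0 to 5.28 in z-score, 3.08-fold lower (2.54 to 3.74). Its neighbour zen2 was 1.51-fold lower (1.24 to 1.84), from 11.1 to 6.54. The BMP ligand gene dpp was 2.74-fold lower (2.28 to 3.31) at its intronic peak 1 and 1.69-fold (1.27 to 2.24) at peak 2. The 2 homeobox neighbours and the 2 dpp peaks thus differed from each other beyond counting error. At zen the untagged level was 2.90 times the lowest among the peaks, and its part was not tested. The GATA factor gene pnr was 3.09-fold lower (2.27 to 4.28), tld, a protease that frees BMP ligands, 1.88-fold (1.52 to 2.33), and brk, a repressor of BMP targets, 1.85-fold (1.44 to 2.40). The neural homeobox gene ind was 2.17-fold lower (1.70 to 2.78).

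The T-box genes Doc2 and Doc3, which act in the amnioserosa and dorsal ectoderm, stood at the other end. Doc2 (3L, 9028911 to 9029715) had a z-score of 19.8 in wild type and 15.3 in TorD. The fold was 1.21 (1.05 to 1.40), and the peak was the third highest of TorD. Outside the central window, 400 bp from the centre on the gene side, Doc2 coverage went from 9.98 to 2.32 times noise. Doc3 (3L, 9002571 to 9002867) had z-scores of 5.87 and 8.85. Its coverage was 1.47-fold higher in TorD (1.19 to 1.83), which places it among the 3 peaks higher beyond counting error.

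Genes of the ventral side had 2 peaks in the list that differed from each other, sna and zfh1. The mesoderm repressor gene sna had 12.97 and 10.3, a fold of 1.18 (0.993 to 1.40). The zinc-finger homeobox gene zfh1 was 1.96-fold lower (1.63 to 2.37), from 14.8 to 6.56, with an untagged level 2.17 times the lowest. The sna interval lay wholly below that of zfh1.

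A list of 10 genes known as Cic targets from earlier work had 8 genes with 15 peaks. Of these, 14 were lower beyond counting error and 9 at least 2-fold lower, beside 87.4% and 60.2% of all peaks, with a median of 2.13. It shares tll, hkb, pnt, aos, ind, zen, tld and dpp with the lists above. Known targets as a group were therefore near the median of all peaks, 2.20, and ranged from 1.07 at pnt peak 1 to 5.29 at tll peak 2.

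The smaller lists had few peaks. The pair-rule gene prd was the one gene of 18 with a peak, and its 2 peaks differed more than those of any other gene with several peaks. Peak 1 (2L, 12087536 to 12087862) went from 6.64 to 0.386 in z-score, 4.46-fold lower (3.11 to 6.53). Peak 2 (2L, 12081135 to 12081489) had 6.11 and 5.49, a fold of 1.05 (0.830 to 1.33). Of 8 Hox genes abd-A had a peak, 2.20-fold lower (1.72 to 2.83). Of 14 neural and sex determination genes 3 had a peak, and all 3 were at least 2-fold lower, beside 60.2% of all peaks. They were sisA, an X-linked gene that counts X chromosomes, with a fold of 4.08 (2.98 to 5.68), the neural homeobox gene pros with 2.61 (1.82 to 3.81) and Tom, a Notch antagonist of the Bearded family, with 2.40 (1.87 to 3.11). Of 10 genes of cell surface and shape 3 had 4 peaks, of which 2 were at least 2-fold lower. The actin regulator gene Shroom was 2.20-fold lower (1.68 to 2.89), and the leucine-rich repeat gene trn 1.20-fold (0.898 to 1.61).

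There were 11 genes with several peaks, and their folds give the spread within a locus. The largest fold of a gene was 4.25 times its smallest at prd, 3.07 times at fend, 2.37 times at tll, 1.82 times at pnt and 1.62 times at dpp. At the other 6, namely srp, cic, hkb, Rpn12R, aos and InR, it was at most 1.29 times. For fend, peak 1 at the start site (X, 9127486 to 9128106) went from 11.99 to 0.902 in z-score and was 5.71-fold lower (4.20 to 7.90), while its intronic peak 2 was 1.86-fold lower (1.40 to 2.49). Their window centres lay 1450 bp apart in wild type and 1780 bp in TorD. The insulin receptor gene InR was 2.08-fold and 1.95-fold lower at its 2 peaks.

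The largest fold within 250 bp was at a peak annotated to CG9220 (X, 15608091 to 15608559), whose summit lies within sog in the RefSeq annotation (assembly Release 6 plus ISO1 MT); sog encodes a BMP antagonist. Its z-score was 11.3 in wild type and 0.459 in TorD, with 247 and 39.9 read equivalents, a fold of 6.78 (4.83 to 9.73). The fold was 14.9 with the flank taken off and 4.31 with a pseudocount of 1 noise level. Within 100 bp hbn had the larger fold of the 2, 8.87 against 8.80. Among peaks at or above the median wild type signal the next were hbn, fend peak 1 and tll peak 2. They were followed by a peak at CG17300 with 4.69-fold (3.50 to 6.37), tll peak 1, sisA, CG15599 with 3.98-fold (3.02 to 5.30), the Sox gene Sox21b with 3.63-fold (2.69 to 4.96) and Rpn12R peak 2 with 3.12-fold (2.49 to 3.93). Rpn12R peak 1 was 2.61-fold lower (2.16 to 3.16). Both Rpn12R peaks and the ind peak lie within Sytbeta in the RefSeq annotation, close to ind.

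At the other end of the same ranking stood CG12986 (X, 17819364 to 17820471), with a z-score of 25.99 in wild type and 23.8 in TorD. Its fold was 1.04 (0.921 to 1.17), or 0.949 without division by the noise mean, and it was the highest TorD peak. Its untagged level was 2.32 times the lowest among the peaks, and the part of that in the value was not tested. After CG12986 came pnt peak 1, sna, Doc2, srp peak 1 and pnt peak 2. Then followed CG15480 with 1.32-fold (1.11 to 1.58), shn, a cofactor of BMP signalling, with 1.39-fold (1.17 to 1.66), CG7029 with 1.46-fold (1.16 to 1.84) and zen2. CG15480 had an untagged level 3.04 times the lowest, and 1.99-fold after its TorD window was moved by 500 bp, the largest shift allowed.

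The 8 peaks with an untagged level of at least 2 times the lowest had a median fold of 1.82, and the other 95 had 2.20. Of the 10 smallest folds at or above the median wild type signal, CG15480, CG12986 and sna were at 3.04, 2.32 and 1.88 times the lowest. Next came pnt peak 2, CG7029, shn and zen2 at 1.45, 1.45, 1.20 and 1.16. Doc2, pnt peak 1 and srp peak 1 were at 1.01, 1.08 and 1.00. The part of the untagged level in these folds was not tested.

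At 4 peaks the z-score was higher in TorD. The largest difference was at a peak annotated to betaTub60D, a beta tubulin gene, 7338 bp from the nearest start site (2R, 24313219 to 24313405). It was among the weakest in wild type with 2.71 and had 9.12 in TorD, on 79.5 and 233 read equivalents. Its coverage was 2.67-fold higher (2.06 to 3.49), and it went from rank 100 to rank 11. At CG3168 the z-score was 4.90 and 7.88, a coverage 1.53-fold higher (1.22 to 1.94). Doc3 was given above. The fourth, a peak without a gene symbol (3R, 14391356 to 14391520), had 2.11 and 2.14 and did not differ beyond counting error. The rise at betaTub60D was thus the one beyond the range seen between wild type and unlit OptoSOS embryos.

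**Figure D4:**
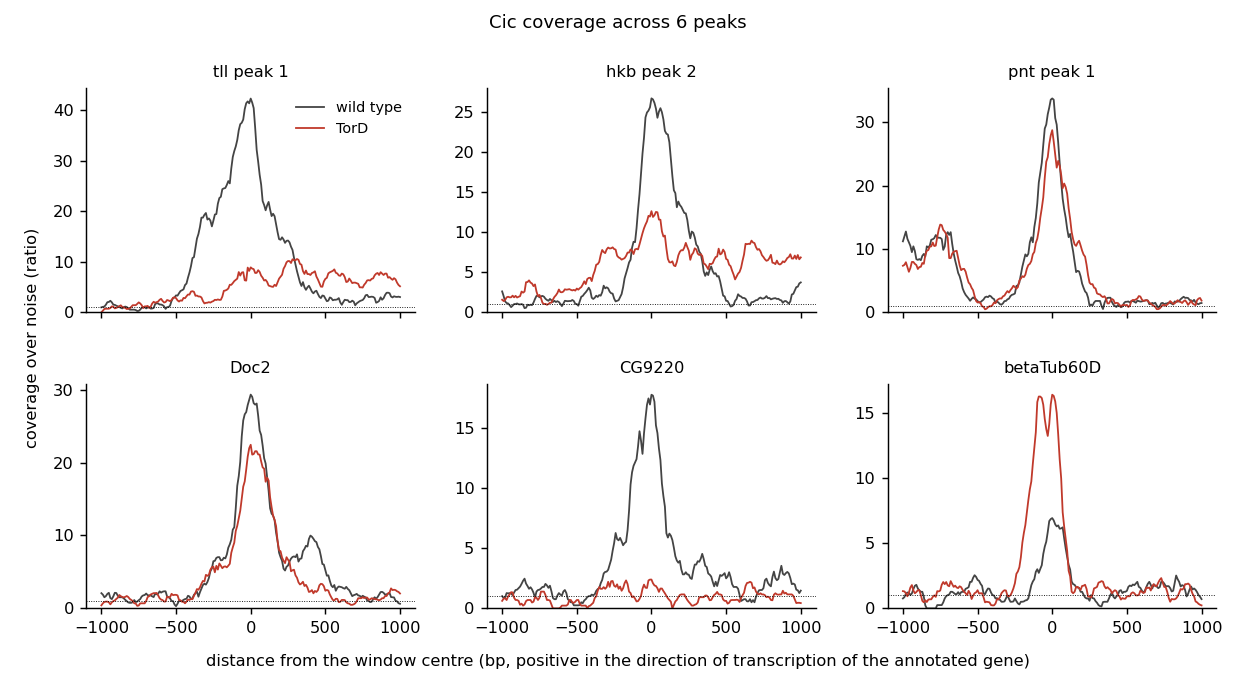
Coverage over noise (ratio, 1 is the dotted line) in 10 bp windows against the distance from the window centre in bp, oriented by the direction of transcription of the annotated gene, for 6 peaks in wild type (grey) and TorD (red). On the gene side, 250 to 1000 bp from the centre, mean TorD coverage at tll peak 1 is 7.23 times noise. At hkb peak 2 it is 6.77. The wild type means of the same stretch are 3.89 and 3.13. In TorD pnt peak 1 and Doc2 keep most of their central height, CG9220 is near noise and betaTub60D is higher. A second rise of Doc2, on the gene side, is lower in TorD. At 400 bp from the centre it goes from 9.98 times noise in wild type to 2.32.

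The profiles differed in shape at the 2 terminal promoters. Beyond the peak, 250 to 1000 bp from the centre on the side of the transcribed gene, tll peak 1 had 3.89 times noise in wild type and 7.23 in TorD. On its other side it had 4.81 and 1.87. At hkb peak 2 the gene side went from 3.13 to 6.77 and the other side from 1.62 to 3.40. In the outermost stretch of the gene side, 750 to 1000 bp from the centre, tll went from 2.98 to 6.66 and hkb from 1.95 to 6.57. Coverage over the first part of both genes was therefore higher in TorD while the peak beside it was lower.

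Among the 32 peaks with a start site within 500 bp, the median gene side went from 1.92 in wild type to 1.58 in TorD, and 11 were higher in TorD. TorD over wild type was 2.16 at hkb and 1.86 at tll, the 2 largest gene side ratios of the 32. At least 2-fold higher in TorD was 1 peak on the gene side and 3 on the other side. On that other side Lrt went from 1.14 to 3.95 and CG15480 from 0.972 to 4.01, so such rises were not limited to the gene side or to terminal genes. In unlit embryos the gene side had 3.65 at hkb and 3.43 at tll. After 5 min of light it had 2.61 and 3.37, and after 30 min 4.23 and 4.11. Whether this coverage is Cic was not tested, and windows were centred anew in TorD, which can shift the stretch that is read. The part of this coverage in the central window was not tested. With the mean flank level of both sides taken off each window, tll peak 1 was 9.97-fold lower and hkb peak 2 was 3.28-fold lower.

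Place in the gene went with small differences in fold. By the authors' annotation 27 peaks lay in promoters, of which 12 (44.4%) were at least 2-fold lower with a median of 1.88. For 41 intronic peaks the count was 26 (63.4%) with a median of 2.27, and for 14 distal intergenic peaks 8 (57.1%) with a median of 2.13. By distance, 39 peaks within 1000 bp of a start site had a median of 2.13, the 28 peaks of the middle distance class 2.28 and the 36 farthest peaks 2.22. Promoter peaks thus had the lowest median of the 3 large classes, and no test was made.

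On the X chromosome the 13 peaks had a median fold of 3.08, and the 90 autosomal peaks 2.18. The flanks differed too: the median flank of X peaks was 1.10 times noise in wild type and 0.906 in TorD, and that of autosomal peaks 1.46 and 1.39. With coverage divided by the flank level of the same arm group in place of the noise mean, the medians were 2.55 and 2.08. The difference was smaller on that scale. The sex of the pooled embryos is not given in the labels.

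The folds of TorD can be set beside those of light, since light and unlit OptoSOS embryos share no library with wild type and TorD. After 5 min of light 53 peaks (51.5%) were at least 2-fold lower than without light, with a median of 2.02. After 30 min 82 peaks (79.6%) were, with a median of 3.11. The TorD fold was below the fold at 30 min for 77 peaks and below that at 5 min for 51. Relative to its own control, TorD thus kept more Cic signal at most peaks than embryos after 30 min of light. The 2 controls differ: the median fold of wild type over unlit embryos was 0.837, and 48 peaks were higher in unlit embryos beyond counting error. The part of the controls and of the genotypes in this gap was not tested. Of the 62 peaks at least 2-fold lower in TorD, 44 were so after 5 min, which is also 44 of the 53, and 54 were so after 30 min, of 82. Spearman's rho of the TorD fold over all peaks was 0.683 with the fold at 5 min and 0.412 with that at 30 min. The points share their peak calls.

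**Figure D5:**
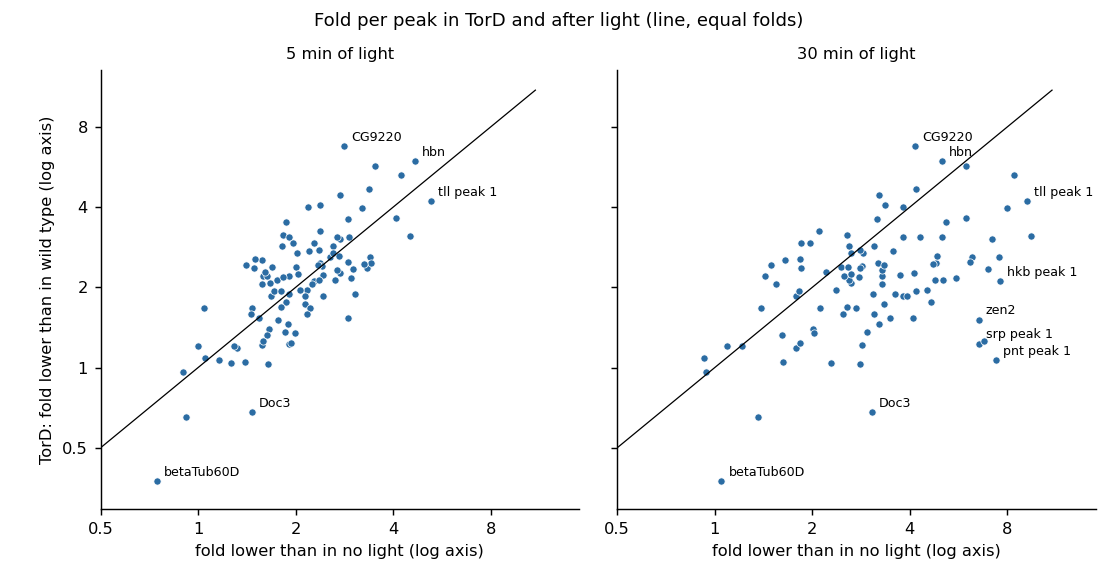
Fold lower in TorD than in wild type against the fold lower after 5 min (left) and 30 min (right) of light than without light, for each peak (log axes; line, equal folds). On the right 77 peaks lie below the line, among them pnt peak 1 at 1.07 in TorD and 7.38 at 30 min.

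The peaks that kept most signal in TorD differed in what light did to them. For pnt peak 1 the fold was 1.16 after 5 min and 7.38 after 30 min, beside 1.07 in TorD. For srp peak 1 the folds were 1.90 and 6.55 beside 1.23, and for zen2 1.76 and 6.53 beside 1.51. At these 3 peaks the signal was thus much lower after 30 min of light than in TorD, each against its own control. Doc2 had 1.57 and 2.84 beside 1.21, sna 1.32 and 1.79 beside 1.18, and CG12986 1.27 and 2.28 beside 1.04. At these 3 the fold was under 3 in every condition. The rest of those 10 had folds after 30 min of 6.80 at pnt peak 2, 1.61 at CG15480, 2.00 at shn and 3.21 at CG7029.

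At the strongest peaks of the terminal genes the fold was larger for tll than for hkb in TorD and after 5 min of light. The folds of tll peak 1 were 5.22 after 5 min and 9.21 after 30 min beside 4.20 in TorD, and those of hkb peak 1 were 2.28 and 7.59 beside 2.11. After 30 min the counting intervals of these 2 peaks overlapped (7.22 to 11.9 and 6.21 to 9.35). In the other direction, CG9220 had 2.82 and 4.14 beside 6.78, hbn 4.67 and 5.02 beside 5.95, and sisA 2.38 and 3.37 beside 4.08. The counting intervals after 30 min were 3.09 to 5.66 for CG9220, 3.66 to 7.05 for hbn and 2.49 to 4.62 for sisA, and each overlapped with that of TorD. After 5 min that of CG9220, 2.21 to 3.62, lay below its TorD interval. At betaTub60D coverage after 5 min of light was also above that without light, with a fold lower of 0.747, and after 30 min the fold was 1.05.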

How the data were processed

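The authors mapped reads to dm6; the submitters' processing notes name BWA 0.7.17-r1188, Trim Galore, SAMtools, MACS2 and ChIPseeker. Calls were made by MACS 2.1.2 at a q threshold of 0.01 on 6994179 wild type tags against 5712080 tags of untagged embryos, with a tag size of 74 bp, per the file headers. Fold enrichment, a ratio, the pileup signal and -log10 p and q values were deposited by the authors for each call. The fold enrichment and pileup gave the untagged level at each summit, which is the caller's local control level and not coverage counted at the peak. Several peaks lie at nearly the same lowest value, 6.90 tags, so ratios to the lowest are ratios to a shared bottom level. How 468 calls were filtered to the final list is not stated. For each condition the authors deposited 1 score matrix, a z-score in 10 bp windows relative to noise peaks, 201 windows for each peak, with replicates combined.

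The z-scores lay on whole steps above the lowest value, within 2.16e-12 of a step in wild type and TorD, and were read as read bases. The noise mean so recovered was 3.93 reads in wild type and 4.30 in TorD. Unnamed columns were taken in the order of the peak list: in each of the 2 groups 6 of 6 pairs of overlapping windows matched exactly. Their shifts differed between conditions (1060 bp in wild type and 750 bp in TorD between pnt peaks 1 and 2), so windows were centred anew in each condition. By profile shape 84 TorD windows lay within 100 bp of the wild type place and 10 beyond 200 bp.

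Folds used exact conditional intervals (scipy 1.17.1) on read bases divided by 74, and the script was tested on simulated data. Medians have order-statistic intervals. Members and gene lists were chosen with earlier results of these data known. Peaks named are those of the lists, the 10 highest in wild type, the 10 largest and 10 smallest folds at or above the median wild type signal, peaks higher in TorD and genes with several peaks. Alternatives varied the window, the summary, the centring, the scaling, the background, the peak set, the pseudocount and the thresholds.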

Additional observations from a re-analysis of the deposited data

How the results depend on the processing

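The median fold of 2.20 became 2.47 within 100 bp of the centre, 1.86 within 500 bp, 2.41 by the window's maximum, 2.01 without division by the noise mean, 3.40 with the flank taken off and 1.90 with a pseudocount of 1 noise level. The median z-score difference of -4.56 became -7.83 within 100 bp, -2.75 within 500 bp, -9.78 by the maximum and -6.18 at peaks of high fold enrichment. The count of 62 peaks at least 2-fold lower became 40 within 500 bp, 40 with the pseudocount and 20 at a threshold of 3. Under the other alternatives run, these and the counts of peaks lower in z-score and beyond counting error stayed within the limits set. Of 111 values of 16 named peaks under the 7 alternatives that could move a single peak, 88 moved by less than their counting interval, 23 moved beyond it and 0 peaks beyond counting error were reversed, while 2 values of peaks within counting error fell on the other side of equal coverage. For hbn no fold could be given with the flank taken off, and that value is not among the 111. The scaling to each arm's own flank was chosen after seeing the data. No paired analysis was possible because the replicates were already combined in the deposited matrices, and leaving out a replicate was not run for the same reason. Depth limits the weakest values: the lowest TorD peak rested on 27.1 read equivalents.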

Other observations

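A few further peaks of genes outside the lists can be given as values; they were chosen after their values were seen. Of the genes for negative regulators of Ras, RasGAP1 was 1.03-fold lower in TorD (95% counting interval 0.816 to 1.30) and Nf1 2.32-fold (1.74 to 3.11). The JAK/STAT ligand gene upd1 was 4.01-fold lower (2.76 to 5.95) and had a TorD z-score of 0.308. The adhesion gene kirre was 3.51-fold lower (2.36 to 5.37), with a TorD z-score of 0.148. The cell junction gene cno was 2.42-fold lower (1.75 to 3.40), and the zinc-finger gene disco 3.08-fold (2.25 to 4.27). At the neighbours CG15480, CG16813 and CG16815 on 2L the folds were 1.32, 2.47 and 1.35.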
